A study of Mus musculus with 4 samples.

Results

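T-box genes encode transcription factors that share a DNA-binding domain, the T-box, and 8 of them are described here: Tbx1, Tbx2, Tbx3, Tbx4, Tbx5, Tbx15, Tbx18 and Tbx20. They were taken by gene symbol, as every probe set annotated to exactly 1 of these symbols, which gave 18 probe sets of 34945 with a single symbol (8 genes of 18193). Transcripts were measured on 4 Affymetrix MOE430 arrays. The 3 ureter samples were whole ureters of male FVB/N mice at postnatal day 1 (Theiler stage 27) that carried an SMGA/EGFP transgene, in which EGFP is a green fluorescent protein and SMGA stands for the gamma-actin of smooth muscle, encoded by Actg2. Those samples were not pooled, had kidney and bladder removed, and held all cell types of the ureter, since no sort by the reporter is named. The whole-mouse reference was 1 sample, a pool of entire FVB/N mice of the same age and of both sexes, with no reporter gene listed. Tissue, sex, transgene and pooling therefore change together and cannot be told apart. The labels do not say whether the 3 ureter samples are separate animals, so p-values here measure the spread among 3 arrays, and that spread may be technical. The reference array was assumed to vary like the ureters.

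In the embryonic ureter, Tbx18 marks the mesenchyme around the epithelial tube, which becomes smooth muscle and fibroblasts, and mice without it form a ureter with a defective muscle coat. Tbx2 and Tbx3 are closely related repressors of transcription that act in the same mesenchyme. The other members are best known elsewhere: Tbx1 in the pharyngeal region, Tbx4 in hindlimb and lung mesenchyme, Tbx5 in forelimb and heart, Tbx15 in skeleton, skin and muscle, and Tbx20 in heart. The comparison with the whole newborn asks how the level of each of these transcripts in the ureter stands against its level in the entire body.

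Tbx18, Tbx2 and Tbx3 were higher in the ureters than in the whole-mouse reference, Tbx15 was lower, and Tbx1, Tbx4, Tbx5 and Tbx20 did not pass the test. Each difference is given on the log2 scale as ureter minus reference, with its standard error (SE) from a limma fit over all probe sets, and a call is a Benjamini-Hochberg adjusted p under 0.05. Of the 18 probe sets 6 were called, against 6.37% of the 27022 probe sets tested on the array. Higher were 5, against 2.79% of those tested, and lower was 1, against 3.58%. Over the whole array 43.8% of the calls were higher, or 33.5% with the scaling as deposited. Tested were 11 of the 18, and 6 of those 11 passed the filter on dim probe sets through 1 group only, so they had to differ between the groups. In deposited intensity, all 3 ureters lay above the reference at 5 of the 18 probe sets (27.8%, against 22.8% of all probe sets) and below it at 8 (44.4%, against 40.8%), shares close to those over the whole array. The median difference was 0.13 over the 18 probe sets, 0.08 over the 11 of them tested and 0.11 over all probe sets tested. The members thus lay on both sides of the reference.

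**Figure D1:**
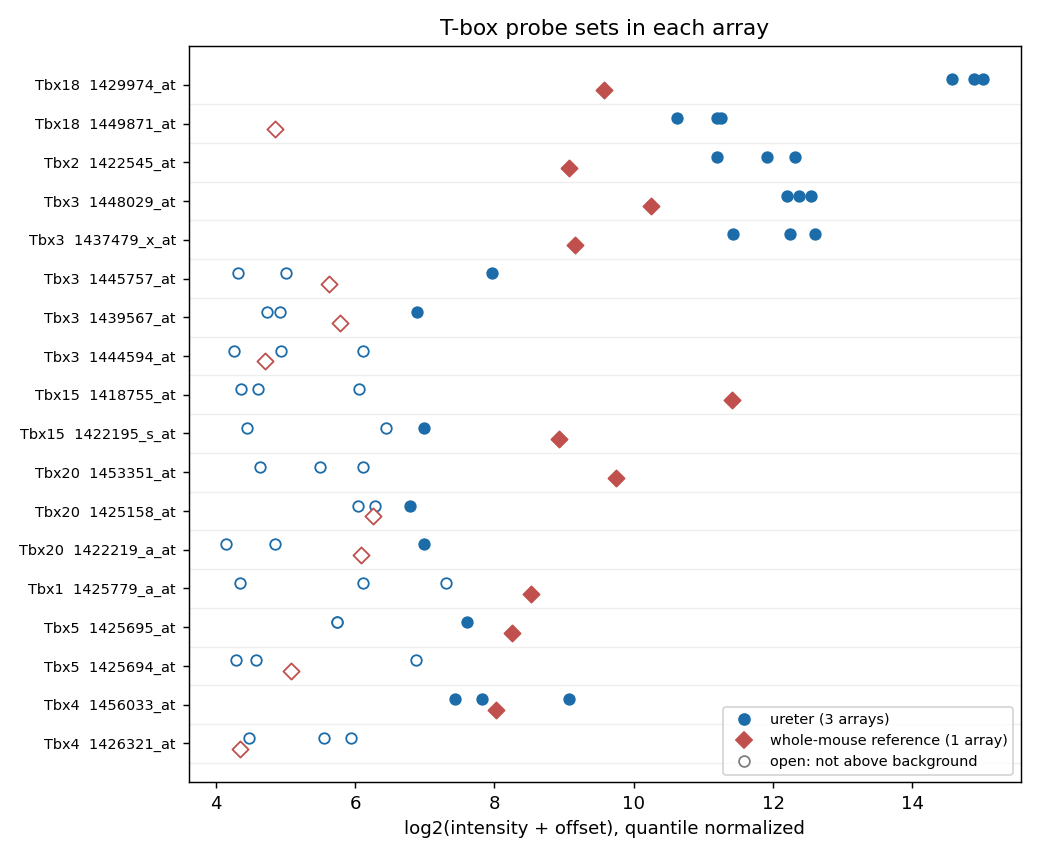
Quantile-normalized log2(intensity + 12.23) of the 18 T-box probe sets (rows) on each array, with blue circles for the 3 ureters and red diamonds for the reference. Open symbols were not above the background level of their own array. The 3 ureters lie to the right of the reference for both Tbx18 probe sets, for Tbx2 and for 2 of 5 Tbx3 probe sets, and to its left for both Tbx15 probe sets. They also all lie left of it, uncalled, for Tbx1, Tbx5 (1425695_at) and Tbx20 (1453351_at), and right of it for the dim Tbx4 probe set 1426321_at.

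Tbx18 had the largest rise of the 8 members. At probe set 1429974_at (target AK012980) its intensity was 30870.3, 24869.6 and 29111 in ureter replicates 1, 2 and 3, against 901 in the reference. The 3 ureters were within 1.24-fold of one another. The difference was 5.24 ± 0.27 (SE; 37.8-fold; 95% confidence interval 4.59 to 5.90; adjusted p = 0.00473). It was the 8th largest rise of the 20969 probe sets above background on all 4 arrays. At the other probe set, 1449871_at (target NM_023814), the ureters gave 1497, 2385 and 2364, against 27.1 in the reference. The reference value was not above background, so the fold is a bound, at least 15.7-fold higher in the ureters (adjusted p = 0.00541). This probe set passed the filter through the ureters alone, so it had to differ to be tested. With no filter its limma adjusted p was 0.0127. The lowest ureter at this probe set was replicate 1, which was the highest at the first, so the probe sets did not order the ureters alike.

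The RefSeq promoter table holds windows for 4 of the 8 members, and those of Tbx18 and Tbx20 are printed because Tbx18 was the brightest member in the ureters and Tbx20 was at background there at its brightest probe set. Each is the 250 bases before the annotated start on the gene's own strand, the minus strand in both (GRCm38.p6, chr9:87731261-87731510 for Tbx18 and chr9:24774304-24774553 for Tbx20). Capitals mark matches on either strand to CCAAT, to the GC box GGGCGG or to TATAAA.
Tbx18: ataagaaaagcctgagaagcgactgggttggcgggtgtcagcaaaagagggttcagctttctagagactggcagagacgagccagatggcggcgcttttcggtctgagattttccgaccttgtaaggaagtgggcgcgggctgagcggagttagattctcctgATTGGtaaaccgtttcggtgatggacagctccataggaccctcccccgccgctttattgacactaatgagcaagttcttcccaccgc
Tbx20: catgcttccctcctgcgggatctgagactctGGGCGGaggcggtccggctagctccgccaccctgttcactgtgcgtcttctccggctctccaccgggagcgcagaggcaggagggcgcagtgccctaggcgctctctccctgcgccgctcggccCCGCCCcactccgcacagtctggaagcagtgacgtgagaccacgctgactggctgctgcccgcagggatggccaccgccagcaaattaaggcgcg
The Tbx18 window has 54% G and C and a single marked match, CCAAT on the opposite strand, starting 87 bases before the gene's start. The Tbx20 window has 68.8% G and C and 2 GC boxes, 219 and 95 bases before the start. Of 32851 promoter windows of this length, 33.8% hold CCAAT, 32.7% GGGCGG and 12.4% TATAAA, and the median G and C content is 52.4%. The T-box binding motif GGTGTGA, found in 3.33% of windows, matched neither, whereas its shorter core GGTGT, found in 36.2%, occurs once in the Tbx18 window, 217 bases before the start. These matches describe letters and not binding.

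Tbx2 was higher in the ureters at its only probe set, 1422545_at. Its intensity was 5310.0, 2280.5 and 3957 in ureter replicates 1, 2 and 3, against 673 in the reference. The lowest ureter stood clear of the reference, and the ureters spanned 2.33-fold among themselves. The difference was 2.73 ± 0.51 (SE; 6.64-fold; 95% confidence interval 1.50 to 3.97; adjusted p = 0.0339). The call ended when ureter replicate 3 was left out (2.62 ± 0.64, adjusted p = 0.139), with no filter (adjusted p = 0.0539) and without the intensity trend (adjusted p = 0.0780). Ureter replicate 2, the lowest for Tbx2, had the highest summed intensity of 6 kidney markers, and replicate 1, the highest for Tbx2, the lowest. Those sums were 399.6, 9640.3 and 4128 in the 3 ureters, against 5810 in the reference, with 3, 5 and 6 of the markers above background in the ureters and 5 in the reference. Tbx2 also followed the order of the summed urothelial markers, which were 115446, 81145 and 89712 in the ureters, against 6429 in the reference. The part of either in the Tbx2 values was not tested. Without replicate 2 the Tbx2 difference was 3.09 ± 0.39 (adjusted p = 0.0171).

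Tbx3 was higher at its 2 bright probe sets, and 3 others were too dim to test. Probe set 1448029_at read 4887, 5160.0 and 6091 in the ureters, against 1329 in the reference, and the ureters were within 1.25-fold of one another. The difference was 2.12 ± 0.33 (SE; 4.34-fold; 95% confidence interval 1.32 to 2.92; adjusted p = 0.0224). Probe set 1437479_x_at, whose suffix marks probes that can match other transcripts, read 5062, 6067 and 2813 in the ureters, against 713 in the reference. There the difference was 2.93 ± 0.52 (7.62-fold; adjusted p = 0.0300), with replicate 3 the lowest, whereas replicate 3 was the highest at 1448029_at. Both calls ended without ureter replicate 3 (adjusted p = 0.119 and 0.0576) and without the intensity trend (adjusted p = 0.0590 and 0.0734). The dim probe sets 1445757_at, 1439567_at and 1444594_at read between 4.95 and 274 in the ureters, and 61.7, 70.8 and 22.2 in the reference. Their differences of 0.15, -0.27 and 0.39 had 95% confidence intervals from -3.43 to 3.73, from -2.78 to 2.24 and from -1.65 to 2.44 in the fit without filter. Probe sets of this gene thus ranged from background to bright in the same RNA.

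**Figure D2:**
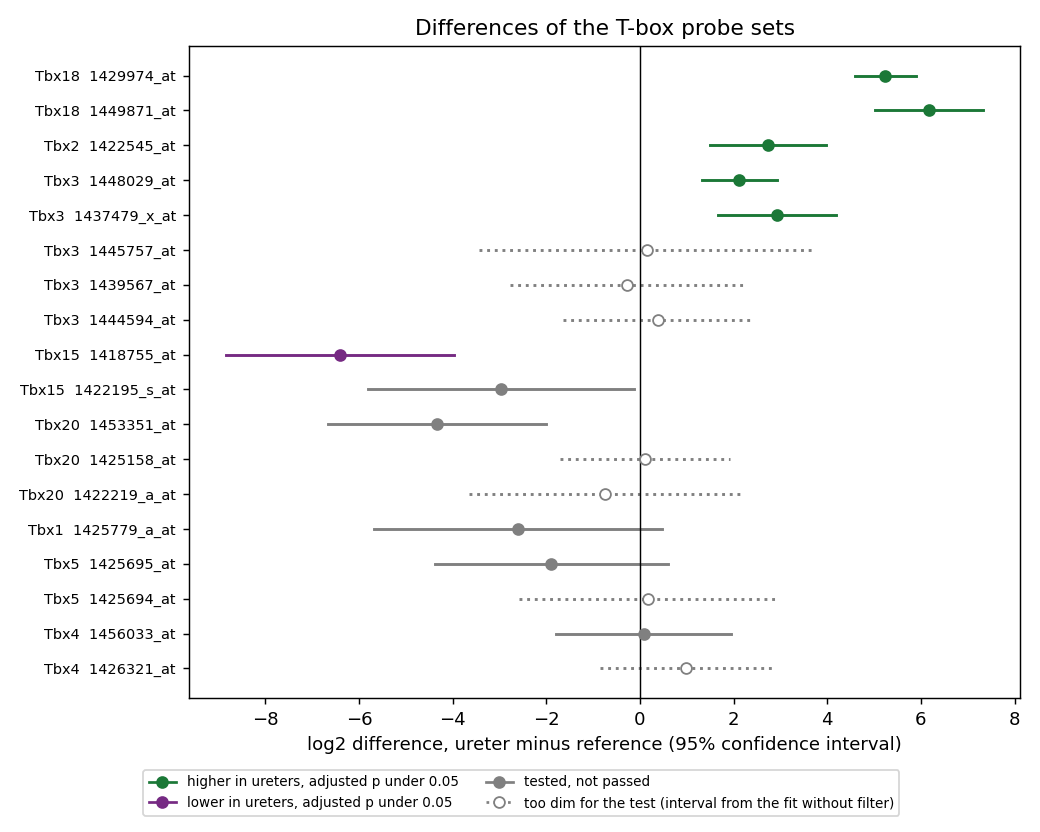
Log2 difference, ureter minus reference, of each T-box probe set with its 95% confidence interval (filled points from the limma fit, open points with dotted intervals from the fit without filter for the 7 probe sets too dim to test). Green points are called higher in the ureters (both Tbx18 probe sets, Tbx2 and 2 of Tbx3), and the purple point, Tbx15, is called lower.

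Tbx15, the closest relative of Tbx18 among the members, was lower in the ureters. At probe set 1418755_at it read 5.28, 66.7 and 8.70 in the ureters, against 2654 in the reference. None of the 3 ureter values was above the background of its array, which makes the fold a bound, the ureters being lower by at least 19.5-fold (adjusted p = 0.0226). The order of the ureter values at that level is not measured. The probe set passed the filter through the reference alone, so it had to differ to be tested. With no filter its limma adjusted p was 0.0367. The call ended without ureter replicate 3 (adjusted p = 0.0718) and with an offset of 1 (adjusted p = 0.0503). Its second probe set, 1422195_s_at, read 74.7, 91.7 and 6.79 in the ureters, of which only replicate 1 was above background, against 621 in the reference. That difference of -2.97 ± 1.17 did not pass (adjusted p = 0.192), although all 3 ureters lay below the reference. Summed skeletal muscle markers were 2592, 6126 and 2598 in the ureters, against 148495 in the reference. Of these 5 markers 4 were called lower, against 4.88% of all genes, and Myog passed the filter through the reference alone. Of 3 brown fat markers 2 were called lower, and Ucp1 passed the filter through the reference alone. Summed brown fat markers were 3246, 4271 and 2395 in the ureters, against 56719 in the reference. Most of the ureter sums was Prdm16, a regulator of brown fat, which read 3147, 4134 and 2176 in the ureters, against 1880.2 in the reference (0.74 ± 0.46, not passed). Their part in the Tbx15 values was not tested.

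Tbx20, a factor of the developing heart, had low readings in the ureters without passing the threshold. Probe set 1453351_at read 20.1, 15.3 and 43.2 in the ureters, none above background, against 991 in the reference. The difference was at least 6.18-fold, the ureters being the lower, and the adjusted p was 0.0540. It passed under 5 alternatives, with adjusted p between 0.0192 with an offset of 50 and 0.0492 with median-centred arrays. The probe set passed the filter through the reference alone, so it had to differ to be tested. With no filter its limma adjusted p was 0.0674. The other Tbx20 probe sets, 1425158_at and 1422219_a_at, were not above background in the reference (103.5 and 90.7) and read 63.2, 80.95 and 40.4, and 74.6, 6.87 and 12.0, in the ureters, where only replicate 1 was above background. Heart markers stood beside this: the atrial natriuretic peptide gene Nppa read 19.1, 13.8 and 5.61 in the ureters, against 1109 in the reference. The 6 heart markers summed to between 4043 and 5518 in the ureters, against 27481 in the reference. Of the 5 tested 3 were called lower, against 4.88% of all genes, and Nppa passed the filter through the reference alone. The heart factor gene Nkx2-5 read 129, 258 and 145 in the ureters, all above background, against 159 in the reference, which was not above its own background (0.87 ± 0.62 after normalization, not passed). Gja5 was at background on every array. The cardiac myosin gene Myh6 still read 2863, 3180.3 and 3361 in the ureters, above background in each, against 17058 in the reference. In such whole-tissue RNA, fewer cells of a type and less RNA per cell cannot be told apart.

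Tbx1, a gene of the pharyngeal arches, read 5.12, 175 and 43.0 in the ureters at probe set 1425779_a_at, against 494.5 in the reference. All ureter values were at background, and the difference of -2.60 ± 1.27 did not pass (adjusted p = 0.275; at least 2.64-fold, the ureters being the lower). Tbx5, known from forelimb and heart, read 25.4, 51.2 and 149.8 in the ureters at 1425695_at, against 423 in the reference. Only replicate 3 was above background there, and the difference of -1.89 ± 1.02 did not pass (adjusted p = 0.322). The second Tbx5 probe set, 1425694_at, was above background on no array, with ureter readings of 4.75, 14.3 and 83.6, against 36.2 in the reference. Summed thymus and parathyroid markers, tissues of pharyngeal origin, were 135, 420.1 and 143 in the ureters, against 363 in the reference, and the single one tested did not pass. The dimmest values of these genes differed severalfold between replicates and carry no order.

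Tbx4, a regulator of hindlimb and lung mesenchyme, was the only member not called that was above background in all 3 ureters. At 1456033_at it read 420, 248 and 131 in the ureters, against 365 in the reference. The groups overlapped, since replicate 1 was above the reference and the other two below it, and the difference was 0.08 ± 0.77 (95% confidence interval -1.78 to 1.95; adjusted p = 0.963). The sign turned with the scaling as deposited (-0.58) and without ureter replicate 1 (-0.39). Its other probe set, 1426321_at, was above background on no array. Summed lung markers were 312, 643 and 372 in the ureters, against 31720.3 in the reference. Of the 4 tested 2 were called lower, against 4.88% of all genes. Both, Sftpc and Sftpa1, passed the filter through the reference alone. The part of lung markers in the Tbx4 values was not tested.

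The genome places 4 of these genes in neighbouring pairs, Tbx2 with Tbx4 and Tbx3 with Tbx5. Between Tbx2 and Tbx4 lie 0 genes of the RefSeq annotation, and 2 lie between Tbx3 and Tbx5, of which 0 code for proteins. In each pair 1 gene was called higher (Tbx2 and Tbx3) and its neighbour was not. The differences were 2.73 for Tbx2 beside 0.08 for Tbx4, and 2.12 for Tbx3 beside -1.89 for Tbx5, each at its brightest probe set, where Tbx5 was not above background in 2 of the 3 ureters. The relatives Tbx18 and Tbx15 were called in opposite directions. Whether neighbours or relatives differ from each other was not tested.

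Spread between the ureters varied among the members. The standard deviation (SD) of the log2 values over the 3 ureters was 0.17 for Tbx3 at 1448029_at, 0.23 and 0.35 for Tbx18, 0.57 for Tbx2 and 0.60 for Tbx3 at 1437479_x_at. It was 0.86 for Tbx4 at 1456033_at and 1.49 for Tbx1. The median over all probe sets tested was 0.37, and the median over the 18 T-box probe sets was 0.89. The latter takes in 7 probe sets too dim to test, so these medians are over unlike sets. Dropping 1 ureter changed the number of T-box probe sets called from 6 to between 2 and 7. The lowest count came without replicate 3, when the 2 Tbx18 probe sets alone passed.

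**Figure D3:**
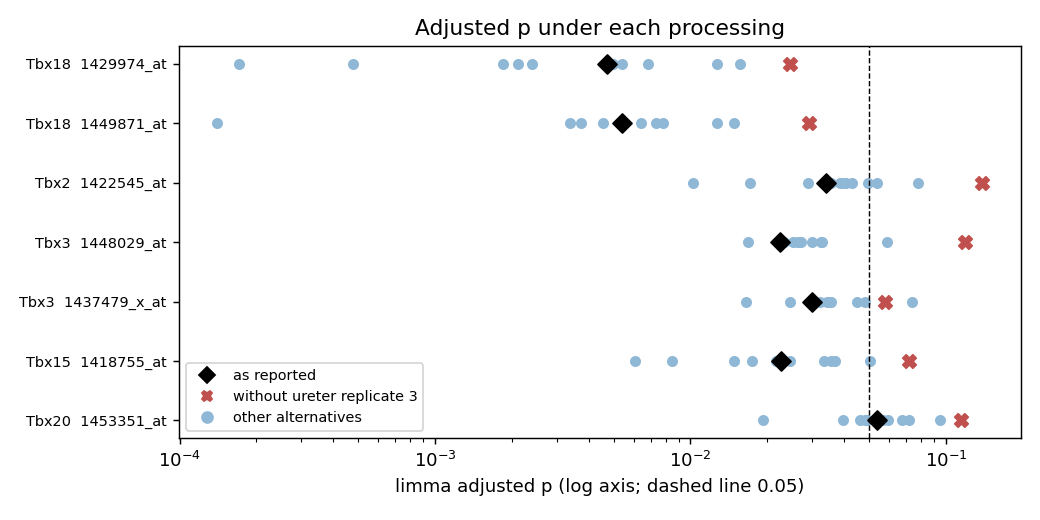
Limma adjusted p (log axis) of the 7 T-box probe sets that passed under any setting, as reported (black diamonds), without ureter replicate 3 (red crosses) and under the other alternatives (blue circles). Both Tbx18 probe sets stay left of the dashed line at 0.05 under all settings shown, whereas each other probe set lies on both sides of it.

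Among other genes, the patterns nearest to the 3 higher members were sought over the 4 arrays. Likeness was the Euclidean distance between log2 values after each probe set was centred on its own mean, over 13212 genes at their brightest probe set. Nearest to Tbx18 were the urothelial plaque gene Upk1b (distance 0.40), Lca5l (0.43) and the phospholipid-transporter gene Atp10b (0.46), where the median gene lay at 4.49. Upk1b read 48162, 39645.5 and 40068 in the ureters, against 1038 in the reference, a difference of 5.64 ± 0.29 (adjusted p = 0.00473). Lca5l and Atp10b were at background in the reference, so their distances and order rest on an unmeasured value. They were at least 6.92-fold and 10.5-fold higher in the ureters. Nearest to Tbx2 were Vsig2 (0.03), the fibroblast growth factor gene Fgf7 (0.24) and the serine protease gene Prss22 (0.25), where the median gene lay at 2.45. Vsig2 read 2756, 1261 and 2012 in the ureters, against 399 in the reference. Nearest to Tbx3 were Scube2 (0.11), Tgfb1i1 (0.12) and the nuclear receptor gene Nr2f1 (0.12), where the median gene lay at 1.85. Scube2 encodes a protein that helps release hedgehog ligands and read 1776, 2008 and 2160 in the ureters, against 568 in the reference. The distance takes in the difference between ureters and reference. A gene picked as near to a called member shares that difference, so its call was largely fixed by the choice. All 6 genes nearest to Tbx2 and Tbx3 were called, and all 6 lost their calls without ureter replicate 3 (adjusted p between 0.115 and 0.186) and without the intensity trend (between 0.0521 and 0.0760). The scaling as deposited ended the calls of Vsig2 (0.0672), Prss22 (0.0535), Scube2 (0.0593) and Nr2f1 (0.112), and no filter those of Vsig2 (0.0608) and Nr2f1 (0.0626). Nr2f1 also lost its call with median-centred arrays (0.0684), the milder filter (0.0526) and without replicate 1 (0.0599). The distances rest on 4 arrays, 3 of them of 1 tissue.

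Of 10 other T-box gene symbols, among which T and Tbxt name the same gene, 7 were on the array and 3 were tested. At limma's adjusted p 0 passed, against 7.94% of the 13718 genes tested at their brightest probe set. At an unadjusted limma p under 0.05, 1 was higher and 1 lower, against 6532 of the 27022 probe sets tested, in either direction. Mga, which joins a T-box to a Max-binding domain, read 4591, 7432 and 5005 in the ureters, against 2597 in the reference, a difference of 1.04 ± 0.40 (adjusted p = 0.183). Tbx6, a factor of the early somites, was above background in ureter replicate 1 alone, so its difference has no measured direction (adjusted p = 0.873). Eomes, a factor of early embryo and lymphocytes, was not called at -2.06 ± 0.60 (adjusted p = 0.104) and was chosen after its value was seen. Tbr1, Tbx19, Tbx21 and Tbx22 were too dim to test.

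Other regulators of the ureteric mesenchyme were called higher in 4 of 11 tested genes and lower in 0, against 3.05% and 4.88% of genes. At an unadjusted limma p under 0.05, 7 were higher and 0 lower, against 6532 of the 27022 probe sets tested, in either direction. The 4 called were Tcf21 (3.04 ± 0.40, adjusted p = 0.0151), a factor of renal and visceral mesenchyme, Gata2 (2.54 ± 0.29, adjusted p = 0.0118), Foxd1 (2.51 ± 0.48, adjusted p = 0.0379), a factor of renal stroma, and Gata6 (1.91 ± 0.33, adjusted p = 0.0289). Foxd1 read 3126, 6323 and 5215 in ureter replicates 1, 2 and 3, against 947 in the reference. That is the order of the summed kidney markers (399.6, 9640.3 and 4128), which Tcf21, Gata2 and Gata6 did not follow. The part of kidney RNA in these values was not tested. The median difference of the list was 1.24, beside 0.10 over all genes. Tshz3, which promotes smooth muscle differentiation in the ureter, differed by 0.68 ± 0.46 and the Wnt receptor gene Ror2 by 0.23 ± 0.58, and neither passed. The sign of Ror2 turned without ureter replicate 2 (-0.02).

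Of 13 tested genes of hedgehog and Wnt signalling, 3 were called higher, against 3.05% of all genes, and 0 lower, against 4.88%. At an unadjusted limma p under 0.05, 5 were higher and 1 lower, against 6532 of the 27022 probe sets tested, in either direction. Hhip, a hedgehog-binding protein induced by the pathway, read 3352, 3355 and 4503 in the ureters, against 397 in the reference (3.68 ± 0.38, adjusted p = 0.00947). Ptch1 (0.33 ± 0.40, adjusted p = 0.668) and Gli1 (0.76 ± 0.55, adjusted p = 0.454), of the same pathway, did not pass. Ureter replicate 1 lay below the reference for Ptch1. The ligand gene Shh differed by 1.69 ± 0.32 (adjusted p = 0.0364) and the Wnt receptor gene Fzd1 by 1.15 ± 0.22 (adjusted p = 0.0384). Ctnnb1, which encodes beta-catenin, differed by 0.06 ± 0.13, and the Wnt target Axin2 by 0.04 ± 0.48, and neither passed. Their signs turned with the scaling as deposited (-0.24 and -0.21), and that of Axin2 also without ureter replicate 1 (-0.02) or 3 (-0.12). The median difference of the list was 0.68, beside 0.10 over all genes.

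Genes that Tbx2 or Tbx3 are known to repress, a list not sorted by tissue, lay in both directions. Of 12 on the array 10 were tested, 1 was called higher, against 3.05% of all genes, 2 lower, against 4.88%, and 7 did not pass. At an unadjusted limma p under 0.05, 3 were higher and 4 lower, against 6532 of the 27022 probe sets tested, in either direction. The largest uncalled differences were those of Shisa3 (2.48 ± 0.63, adjusted p = 0.0749) among the higher and Cdkn1a (-1.43 ± 0.48, adjusted p = 0.139) among the lower. The median difference of the list was -0.70, beside 0.10 over all genes. Dkk2, a secreted Wnt antagonist, was the one called higher, with 1973, 2695 and 2711 in the ureters, against 212 in the reference (4.04 ± 0.41, adjusted p = 0.00934). Nppa, which is also among the heart markers above, was called lower, by at least 7.03-fold (adjusted p = 0.0409). It passed the filter through the reference alone, so it had to differ to be tested. With no filter the limma adjusted p of Nppa was 0.0392. The gap junction gene Gja1 read 20238.6, 28509.5 and 22894 in the ureters, against 55732 in the reference (-1.10 ± 0.22, adjusted p = 0.0424), and it lost its call with median-centred arrays (-0.51, adjusted p = 0.409). The Wnt antagonist gene Frzb (-0.64 ± 0.62) and the stress-response gene Ndrg1 (-0.77 ± 0.28) did not pass, and the sign of Ndrg1 turned with median-centred arrays (0.04).

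**Figure D4:**
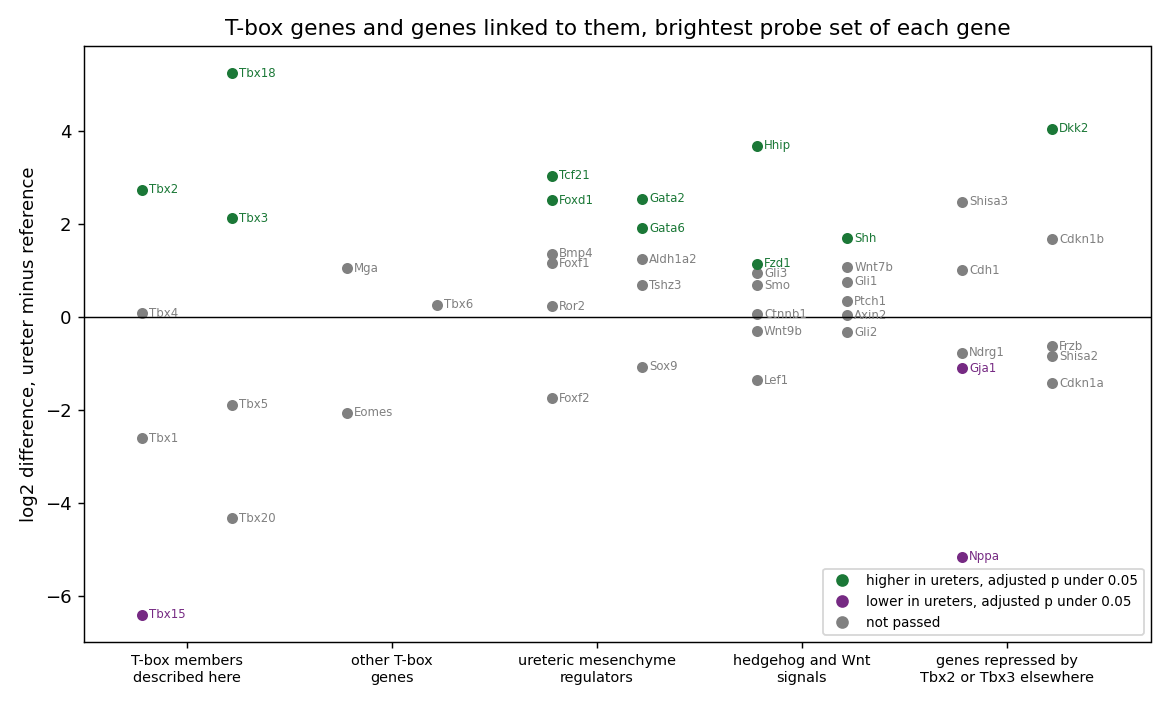
Log2 difference, ureter minus reference, at the brightest probe set of each tested gene, for the 8 T-box members and for 4 lists of linked genes. The lists are other T-box genes, ureteric mesenchyme regulators, hedgehog and Wnt signals, and genes known to be repressed by Tbx2 or Tbx3, not sorted by tissue. Green points are called higher (Tbx18, Dkk2 and Hhip at the top of their lists), purple points lower (Tbx15, Nppa and Gja1) and grey points did not pass.

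All 10 of these called genes lost their calls when ureter replicate 3 was left out, with adjusted p between 0.0516 for Dkk2 and 0.187 for Fzd1. Gata6 also lost its call with median-centred arrays (0.0503) and without the intensity trend (0.0668), and Foxd1, Shh and Fzd1 did with no filter (0.0585, 0.0669 and 0.0648) and without the intensity trend (0.0867, 0.125 and 0.153). Fzd1 further lost it without replicate 1 (0.0546), and Gja1 with no filter (0.0886), the milder filter (0.0535) and without the intensity trend (0.189). Markers of the labelled tissue were present, since smooth muscle and urothelial markers were above background in every ureter. In each list 5 of 6 were called higher, against 3.05% of all genes, and the urothelial gene Snx31 passed the filter through the ureters alone. The sixth smooth muscle marker, the intermediate filament gene Des, read 979, 1114 and 1014 in the ureters, against 2715 in the reference (-1.36 ± 0.37, adjusted p = 0.0906). The sixth urothelial marker, Upk2, differed by 0.96 ± 0.42 (adjusted p = 0.230). Summed smooth muscle markers ranged from 74543 to 100719 in the ureters, against 20677 in the reference, and fibroblast markers from 147802 to 169881, against 102628. Their part in the T-box values was not tested.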

How the data were processed

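RNA of 3 ureter samples and 1 whole-mouse pool was amplified in 2 rounds and hybridised to 1 array each, per the labels' protocols. The authors deposited 1 linear intensity per probe set and array. The submitters' processing notes name GCOS without a version, and the sources used here do not describe the background treatment. The trimmed mean (2% at each end) was 1500.01 on every array, so the values had been scaled by the authors. Median intensities were 154, 259 and 186.5 in the ureters and 332 in the reference, and array number limits the precision.

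Of 45101 probe sets, 64 controls were left out. Array medians of log2(intensity + 12.23) spanned 1.05, more than the 0.5 allowed, so arrays were quantile normalized. The offset 12.23 is the 10th percentile of all values, and it makes folds of dim probe sets too small. The 40% with the lowest mean of both group means were filtered out. Groups were compared with limma 3.58.1 in R 4.3.3 (lmFit, eBayes with intensity trend, two-sided, 2 residual degrees of freedom), checked on simulated data. There, 26% of log2 changes of -2 and 42% of those of 2 were called, and 70% and 88% of those of -4 and 4. A gene that did not pass may therefore still differ. Background was the highest intensity of 27 bacterial control probe sets taken as not spiked in: 57.2, 212 and 101.5 in the ureters and 188 in the reference. A fold against a group at background is given as "at least". Intervals of probe sets too dim to test come from the fit without filter.

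The ureters correlated with each other at r of 0.90 to 0.94 across probe sets and had at most 6 identical values in a pair, so all 3 were counted. Genes were named from the supplied platform annotation, and all 8 member symbols matched the RefSeq table. Array positions are not given, because no build is named for them. Members, lists and tests were chosen with earlier results of these data known. Named genes are all members and 3 genes most like each of Tbx18, Tbx2 and Tbx3. From each list, up to 4 with the largest called and 2 with the smallest uncalled differences are named. Markers are named besides, and so are Eomes, Ptch1, Gli1, Shisa3 and Cdkn1a, chosen after their values were seen. Alternatives were other scalings, offsets, filters, no trend, each ureter left out, and the mean of a gene's probe sets.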

Additional observations from a re-analysis of the deposited data

How the results depend on the processing

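Adjusted p stayed under 0.05 for both Tbx18 probe sets under all 12 alternatives run for the first and 11 for the second. The second passed the main filter through the ureters alone. Leaving out each ureter in turn, adjusted p ranged from 0.00212 to 0.0245 and from 0.00336 to 0.0292 for Tbx18 (1429974_at and 1449871_at), from 0.0171 to 0.139 for Tbx2, from 0.0270 to 0.119 and from 0.0322 to 0.0576 for Tbx3 (1448029_at and 1437479_x_at), from 0.0148 to 0.0718 for Tbx15 (1418755_at), from 0.0394 to 0.114 for Tbx20 and from 0.785 to 0.885 for Tbx4. T-box probe sets called numbered 6, and 2 to 7 in those omissions, and probe sets called on the whole array 1721, and 335 to 2279. Without the intensity trend, 922 probe sets were called, and adjusted p was 0.0780 for Tbx2, 0.0590 and 0.0734 for Tbx3 and 0.0481 for Tbx20. With no filter 1139 were called, and adjusted p was 0.0539 for Tbx2. An offset of 1 gave 0.0503 for Tbx15. Tbx20 passed with median-centred arrays (0.0492), an offset of 50 (0.0192) and the milder filter of 20% (0.0459). Both had passed the main filter through the reference alone. Signs of uncalled genes turned as deposited for Tbx4 (adjusted p = 0.725), Axin2 (0.846), Ctnnb1 (0.629) and Tbx6 (0.769), with median-centred arrays for Ndrg1 (0.965), and in omissions for Tbx4 (without replicate 1, 0.785), Axin2 (without replicate 1 or 3) and Ror2 (without replicate 2). Over the 3 omissions adjusted p was 0.711 to 0.989 for Axin2 and 0.342 to 0.988 for Ror2. The cause was not tested. The median difference of all probe sets was 0.11, -0.13 as deposited and 0.60 with median-centred arrays, where 33.5% and 48.1% of calls were higher, against 43.8%. It was 29.6% without the trend and 15.8% without replicate 3. Quantile normalization of linear intensities, chosen after seeing the data, called 1674. The mean of the Tbx3, Tbx4, Tbx5, Tbx20 and Tbx1 probe sets fell under the filter and was not tested. No paired analysis was possible because the reference is a single sample. The single reference array could not be left out, and signals at background limit Tbx1, Tbx5, Tbx15 and Tbx20.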
